A study of Mus musculus with 2 samples.

Results

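The cytosolic ribosomal protein genes code for the protein part of the ribosome outside mitochondria. They were taken here as every row of the feature table named Rpl or Rps with a number, together with Rplp0, Rplp1, Rplp2 and Rpsa, which gave 83 of 32285 rows, 51 for the large and 32 for the small subunit. The rule reads symbols only. The cells came from the dorsal telencephalon of wild-type (WT) mouse embryos at embryonic day 14.5, and the sample titles carry the line code EoMltt3, which the labels do not explain. Papain-dissociated cells of replicates 1 and 3 were run as separate 10x Genomics single-cell 3' libraries, in which each transcript molecule captured is counted once through a unique molecular identifier (UMI). Both libraries are of the same genotype, so the comparisons are between cell classes, each with 2 sums of UMIs. Nothing in the labels says more of the embryos than the numbers in their titles, so p-values measure the spread between these 2 libraries.

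A ribosome holds 1 copy of nearly every ribosomal protein, apart from the P-stalk proteins Rplp1 and Rplp2, which bind in pairs to Rplp0. Ribosomal protein mRNAs are short, abundant and mostly begin at a run of pyrimidines, the terminal oligopyrimidine tract, through which mTOR signalling and La-related proteins set their translation and stability. In the embryonic cortex, radial glial cells (RGCs) divide and give rise to intermediate progenitor cells (IPCs) and to excitatory projection neurons (PNs), while interneurons migrate in from the medial ganglionic eminence (MGE).

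The module took 10.8% of all UMIs from 0.257% of the rows. Its share was 10.3% of 64182006 UMIs in replicate 1 and 11.1% of 93295807 UMIs in replicate 3, and 41 and 44 of the 100 most abundant genes were members. Of the 83 members, 82 had at least 1 UMI. Rpl10l had 0 UMIs, Rpl3l 8 and Rpl39l 21, and these 3 did not pass the filter on low counts, which left 80 members in the tests. Of the other 80, Rpl7l1 held the least, 0.0613% of the module's UMIs, and 54 members held over 1%. Among the most abundant were Rpl13 with 439660 UMIs, Rps24 with 355875, Rps27a, which is made as a fusion with ubiquitin, with 339847 and Rpsa with 334154. The 3' counting takes 1 end of each transcript, and ribosomal protein genes have many near-identical processed copies in the genome, so reads that match several copies may be lost or moved, and the order of levels between members is uncertain.

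After filters 12075 cells were kept in 26 clusters, made without any member gene. Clusters were named from 110 markers of 13 classes, and 92.6% of cells received a name. The RGC-like clusters had 11 of 11 markers of that class on, the IPC-like clusters 9 of 9 and the PN-like clusters 9 to 11 of 11. Of the 13 listed for the MGE interneuron-like cluster, 7 of its own were on. The 5 shared with the CGE/LGE-like class (Gad1, Gad2, Dlx1, Dlx2 and Dlx5) were on as well. The libraries shared 23 barcodes, 15 of them kept in both.

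The share of UMIs that fell on the module was highest in vascular, meningeal and immune cells, lower in progenitors, lower again in projection neurons and lowest, blood aside, in interneurons. Endothelial-like cells stood at 16.9% in replicate 1 and 17.1% in replicate 3, meningeal-like cells at 16.8% ± 0.87 (SD, n = 2), pericyte-like cells at 16.4% ± 0.49 and microglia-like cells, only 34 cells, at 16.1% ± 0.71. The meningeal-like values spanned those of the endothelial-like cells, while pericyte-like and microglia-like cells lay below the endothelial-like cells in both replicates. RGC-like cells followed at 13.5% in replicate 1 and 14.3% in replicate 3, and IPC-like cells at 13.8% and 13.0%, so that the 2 progenitor classes overlapped and both lay below the non-neural ones. PN-like cells were at 9.08% and 9.12%, and Cajal-Retzius-like cells, the early reelin neurons of the marginal zone, at 8.55% and 8.48%. MGE interneuron-like cells were at 4.38% and 4.11%. CGE/LGE-like cells were at 5.49% ± 1.82 (SD, n = 2), with 449 of them in replicate 1 and 34 in replicate 3. Red blood cell-like cells, whose UMIs are mostly globin, were lowest at 2.71% ± 0.53. With 2 sums a class no permutation test of a share can reach 0.05, and none was run. The 95% Wilson intervals, which cover counting error only, were narrow, for example 4.35 to 4.41% for MGE interneuron-like cells of replicate 1. In UMIs per cell the medians were 1874 and 1865 in RGC-like, 1123 and 1040 in PN-like and 108 and 88 in MGE interneuron-like cells.

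**Figure D1:**
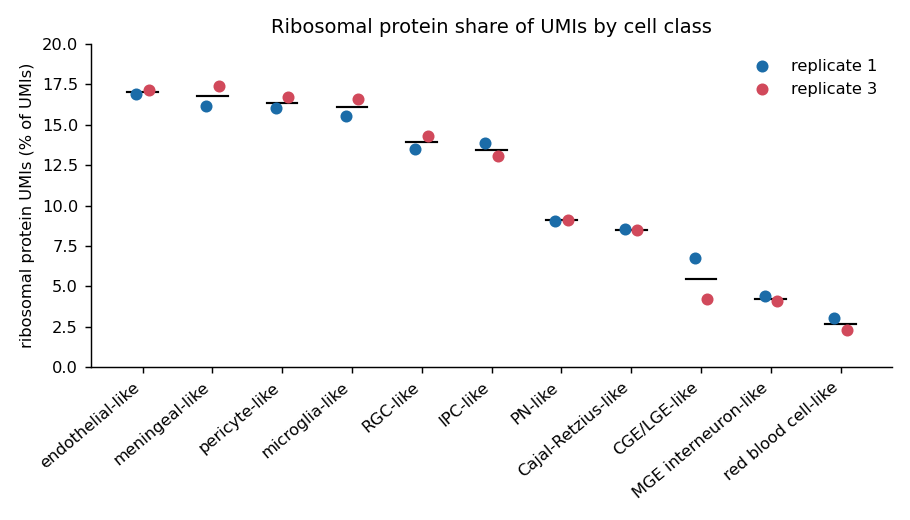
Share of UMIs on the 83 ribosomal protein genes (%, y axis) in 11 named cell classes (x axis), with 1 point for each replicate and a bar at their mean. The 4 non-neural classes lie between 15.6 and 17.4%, RGC-like and IPC-like cells at 13.0 to 14.3%, PN-like cells at 9.1% and MGE interneuron-like cells at 4.1 to 4.4%.

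Both subunits moved with the total. The large over small subunit UMI ratio was 1.18 ± 0.02 in RGC-like, 1.18 ± 0.01 in IPC-like, 1.24 ± 0.02 in PN-like and 1.25 ± 0.002 in MGE interneuron-like cells (SD, n = 2), and over all named classes it lay between 1.15 and 1.31.

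Other properties of the cells moved with the share. From RGC-like to IPC-like, PN-like and MGE interneuron-like cells, the share of UMIs on genes spanning at least 100 kb went from 23.5% to 24.5%, 32.6% and 42.3%, the summed share of nuclear long noncoding RNAs from 0.74% to 0.99%, 1.69% and 2.39%, and the mitochondrial share from 2.89% to 2.85%, 3.35% and 4.83%. Counted only against genes spanning under 20 kb, the module took 30.1% ± 0.16, 29.5% ± 1.41, 23.1% ± 0.82 and 16.3% ± 0.53 (SD, n = 2), in the same order of class means. The part of nuclear or unspliced RNA in these shares was not tested, and whether introns were counted is not given in the sources used here.

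The share also differed with depth, though not in the same direction throughout. Among cells of 3000 to 6000 UMIs, PN-like cells held 4.54% and 5.26% ribosomal protein UMIs in replicates 1 and 3, with 6.14% mitochondrial UMIs in replicate 1, and MGE interneuron-like cells 2.95% and 2.56%, with 5.50% and 6.31% mitochondrial UMIs. Among cells of 6000 to 12000 UMIs the shares were 15.6% and 15.5% in RGC-like, 15.7% and 14.3% in IPC-like, 9.63% and 9.48% in PN-like and 5.84% and 4.99% in MGE interneuron-like cells. RGC-like cells of 3000 to 6000 UMIs held 9.08% (22 cells) and 12.5%, and IPC-like cells 12.5% (15 cells) and 11.04%. In both ranges the PN-like values lay below those of both progenitor classes and above those of the MGE interneuron-like cells. Among cells of 12000 to 24000 UMIs the shares were 13.3% and 14.3% in RGC-like, 13.0% and 12.5% in IPC-like and 9.29% and 9.58% in PN-like cells. From 24000 to 48000 UMIs they were 11.4% and 11.9% in RGC-like and 7.84% and 7.94% in PN-like cells. Depth was not equal within a range: between 3000 and 6000 UMIs the median was 4581 and 4593 in PN-like and 4240 and 4075 in MGE interneuron-like cells. The median cell held 4512.5 and 4019 UMIs in the MGE interneuron-like and 11065 and 10556 in the PN-like class.

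**Figure D2:**
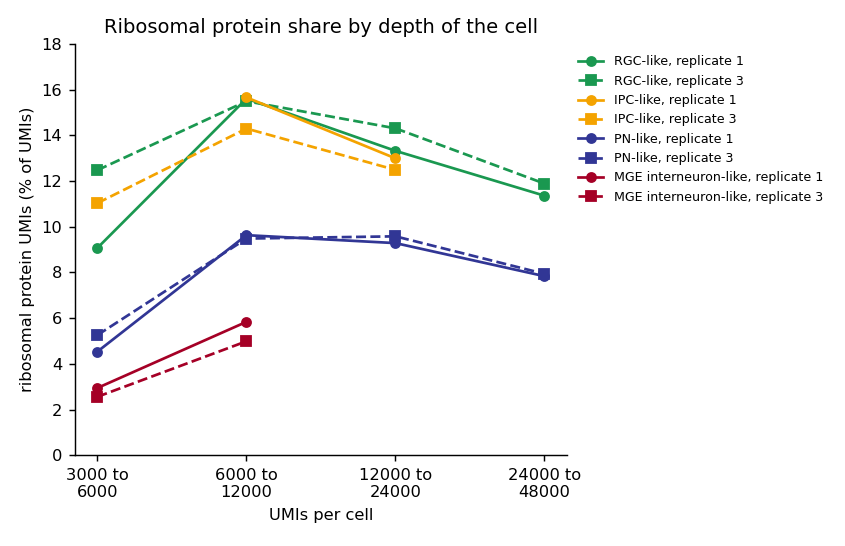
Ribosomal protein share of UMIs (%, y axis) by UMIs per cell (x axis, 4 ranges) in 4 classes, for replicate 1 (circles, solid lines) and replicate 3 (squares, dashed lines); ranges with under 20 cells are left out. PN-like cells rise from 4.54 and 5.26% to 9.63 and 9.48% between the first and second range and stay below RGC-like cells in every range. RGC-like and PN-like cells are lower in the last range than in the second in both replicates.

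Along an order from RGC-like and IPC-like to PN-like cells, the module stayed near its first level through the progenitor bins. It then dropped as PN-like cells came in. The unnamed cluster led by Smoc1, Gadd45g and Neurog2, described below, was not in this order. It held 15.8% and 16.4% in replicates 1 and 3, more than the RGC-like and the IPC-like class. Of the RGC-like, IPC-like and PN-like cells, 9161 with at least 3000 UMIs were used, and 313 with fewer were left out. For the score the used cells were thinned to 3000 UMIs and ordered by the difference of 15 neuronal and 15 progenitor genes. The order was cut into 10 bins of equal size, and shares were taken from unthinned counts. The share was 13.7% and 14.6% (replicates 1 and 3) in bin 1, 13.7% and 13.6% in bin 3, where 71.9% and 52.5% of cells were IPC-like, 10.7% and 10.8% in bin 4 and 8.83% and 9.29% in bin 5, where 94.8% and 92.6% of cells were PN-like. It was lowest in bins 7 and 8 and stood at 10.1% and 9.70% in bin 10, above bins 5 to 8 in both replicates. The last bin lay below the first by a log2 ratio of -0.44 in replicate 1 and -0.59 in replicate 3. Of the 80 members, 78 were lower in the last than in the first bin in both replicates, 79 had their highest level in bins 1 to 3, and 70 had their lowest level in bins 5 to 8. These patterns were counted for members only, so the share of all genes that show them is not known. Rps27l alone was lowest in bin 10 in both replicates, falling from 351 and 297 CPM (UMIs scaled to the same total in every sum) in bin 1 to 105 and 100 in bin 10. Rps7, a small subunit protein, stood at 1982 and 2519 CPM in bin 1, 1684 and 2120 in bin 5 and 2196 and 2482 in bin 10.

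**Figure D3:**
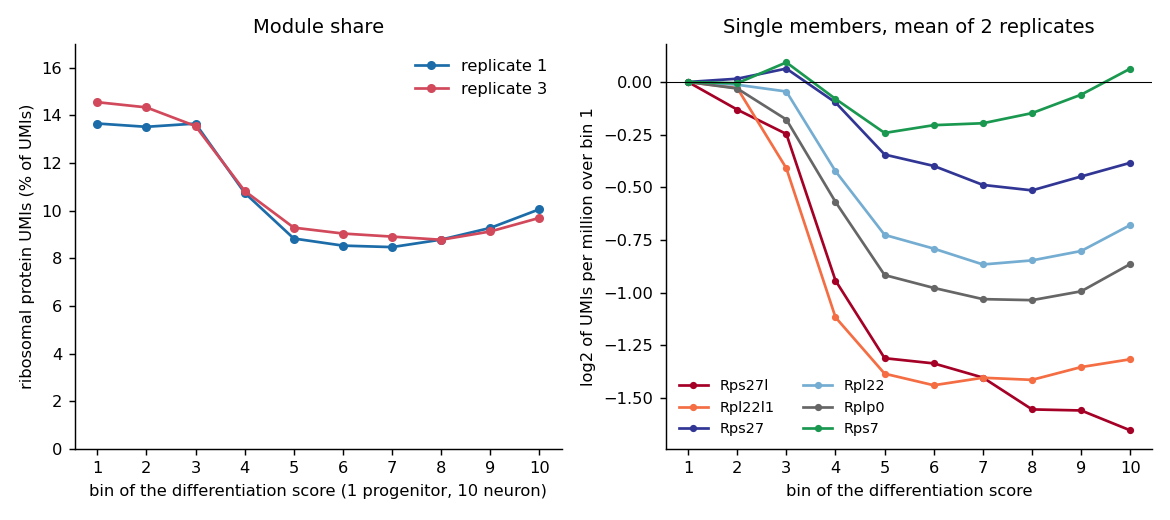
Left, ribosomal protein share of UMIs (%) in 10 bins of the differentiation score for each replicate. Right, log2 of CPM over bin 1 for 6 members, mean of 2 replicates. The share drops from 13.7 and 13.6% in bin 3 to 8.83 and 9.29% in bin 5, and in bin 10 Rps27l lies furthest below its first bin of the 6 while Rps7 is back near it.

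The PN-like clusters also differed from one another, and some changed places between the replicates. The cluster led by Slc17a6, Neurod1 and Unc5d held 11.9% and 11.6%, that led by Adamtsl3 and Nrp1 10.3% and 9.91%, and that led by Hs3st4 and Rgs6 8.14% and 7.96%. The cluster led by Kctd8 and Ldb2, at 9.46% and 8.68%, lay above that led by Crym in replicate 1 (9.33%) and below it in replicate 3 (8.83%). The PN-like cluster of lowest depth, 205 cells with 6.66% and 7.27% mitochondrial UMIs, held 3.89% and 3.01%. An unnamed cluster led by Smoc1, Gadd45g and Neurog2, with all RGC and all IPC markers on, held 15.8% and 16.4%, more than the RGC-like and the IPC-like class. Another, of 83 cells and led by Cntn3, Krt15, Igf1, Krt14 and Krt5, held 19.2% and 20.9%, the highest of the 26 clusters. Clusters were called on the same cells, so these are descriptions.

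Cell cycle phase of the RGC-like cells, called from S and G2/M genes, went with the share too. In G1 it was 15.2% and 16.4%, in S 13.9% and 14.9% and in G2/M 12.6% and 12.8%, the same order in both replicates. Median depth went the other way, from 10976 and 10579 UMIs in G1 to 15662 and 14468 in G2/M. The cycling IPC-like cluster, led by Neil3 and Rrm2, held 11.8% and 11.2% against 15.2% and 14.0% in the other IPC-like cluster, which was led by Kif26b and Eomes. The part of depth in these differences was not tested.

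To ask which members differed between classes, UMIs were summed per class and replicate and compared with edgeR's quasi-likelihood test over 14729 genes, with TMM scaling and Benjamini-Hochberg adjusted p-values below 0.05 called. The relative comparison repeated the fit with the summed members as library size, which asks whether a member changed its part of the module.

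Between IPC-like and RGC-like cells few members differed beyond the spread of the replicates. The median of 80 members was 0.03 on the log2 scale (-0.01 over all genes). Of them 0 were called higher and 2 lower, against 20.4% and 20.9% of all genes called higher and lower; 3 members had an unadjusted p under 0.05, and DESeq2 called 0 higher and 3 lower. Those 2 were Rpl22l1 and Rpl7l1. With the replicate as a block 8 members were lower (23.7% of all genes), among them Rps2, Rpl14 and Rpsa, and 1, Rpl27, was higher.

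Rpl22l1 is the paralog of Rpl22, an RNA-binding large subunit protein, and in several cell types the level of one answers to that of the other. Rpl22l1 measured 661 and 609 CPM in RGC-like and 476 and 376 in IPC-like cells. It measured 258 and 234 in PN-like and 86.1 and 110 in MGE interneuron-like cells, with no overlap between these classes. The share of all genes separated in this way was not counted, so the separation may not be particular to Rpl22l1. Of all genes, 20.9% were called lower from RGC-like to IPC-like cells and 21.3% from IPC-like to PN-like cells. Rpl22l1 fell by 0.51 ± 0.14 (log2, SE, edgeR adjusted p = 0.021) from RGC-like to IPC-like cells. From IPC-like to PN-like cells it fell by 0.65 ± 0.14 (edgeR adjusted p = 0.0064). The first of these calls was lost under the stricter cell filter (log2 fold change -0.39) and with the unnamed Neurog2 cluster counted as IPC-like (-0.33). Rpl22 stood at 888 and 864 CPM in RGC-like and 909 and 755 in IPC-like cells (log2 fold change -0.01 ± 0.13) and at 540 and 501 in PN-like cells, a fall of 0.53 ± 0.13 from IPC-like (adjusted p = 0.011). Rpl22l1 made up 42.7% and 41.3% of the UMIs of the pair in RGC-like, 34.3% and 33.3% in IPC-like and 32.3% and 31.9% in PN-like cells. It reached 53.8% and 45.3% in Cajal-Retzius-like cells.

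Rps27l is the paralog of Rps27, a small subunit protein with a zinc finger, and is known as a target of p53. Rps27l measured 330 and 290 CPM in RGC-like, 276 and 249 in IPC-like, 115 and 116 in PN-like and 43.4 and 71.7 in MGE interneuron-like cells. From RGC-like to PN-like cells it fell by 1.22 ± 0.16 (log2, SE; edgeR adjusted p = 1.8e-04), the furthest of the 80 members, and by 1.04 ± 0.16 from IPC-like to PN-like cells (adjusted p = 9.1e-04). Rps27 measured 1157 and 848 CPM in RGC-like and 888 and 620 in PN-like cells, and its spread between replicates left the difference short of a call (log2 fold change -0.20 ± 0.32). Rps27l made up 22.2% and 25.5% of the pair in RGC-like and 11.4% and 15.8% in PN-like cells.

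Rpl7l1, named after Rpl7 and the rarest member tested, measured 88.0 and 99.6 CPM in RGC-like, 58.8 and 68.3 in IPC-like and 51.7 and 61.7 in PN-like cells. It fell by 0.49 ± 0.12 (log2, SE; edgeR adjusted p = 0.013) from RGC-like to IPC-like cells, and from there to PN-like cells its log2 fold change was -0.03 ± 0.12. Rpl7 measured 1276 and 1652 CPM in RGC-like and 1384 and 1675 in IPC-like cells. Rpl39l was counted 21 times in all against 24635 UMIs of Rpl39 in RGC-like cells of replicate 3 alone, and Rpl3l 8 times.

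The starts of the members that follow are shown because they carry or lack the pyrimidine run by which these mRNAs are known. Each is 30 bases, 15 before the annotated start and 15 from it on (RefSeq, GRCm38.p6, the same build as the authors' mm10), 5' to 3' on the coding strand, with the longest run of at least 5 pyrimidines that opens with C in capitals.
Rps27 (chr3:90213634-90213663, minus strand): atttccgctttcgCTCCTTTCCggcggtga
Rps27l (chr9:66946071-66946100, plus strand): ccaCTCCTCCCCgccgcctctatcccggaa
Rpl22l1 (chr3:28805493-28805522, plus strand): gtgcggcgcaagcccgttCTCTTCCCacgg
Rpl38 (chr11:114668565-114668594, plus strand): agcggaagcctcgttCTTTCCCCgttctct
Rps6 (chr4:86857353-86857382, minus strand): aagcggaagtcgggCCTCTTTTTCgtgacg
Rpl7l1 (chr17:46782642-46782671, minus strand): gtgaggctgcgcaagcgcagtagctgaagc

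In Rps27, Rpl38 and Rps6 the run covers or begins at the annotated start; in Rps27l it lies before it, in Rpl22l1 it begins at base 4, and in the Rpl7l1 window there is none. Of the 83 members 63 had an entry, with 75 windows. A start base C followed by 4 bases each C or T was found in 13 of the 75 windows (17.3%), against 2.51% of all 32851 windows. A run of C and at least 6 more pyrimidines within 30 bases of the start, coding strand only, was in 54.7% of member windows and 26.5% of all. The letters CCGGAAG, a core that ETS factors such as GABP bind, searched on both strands of the 300-base window, were in 36.0% of member windows and 8.86% of all. Annotated starts can lie some bases from the true ones, and some genes have more than 1 window.

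From IPC-like to PN-like cells the module fell. Of 80 members 37 were called lower and 0 higher, against 21.3% and 24% of all genes called lower and higher; 54 members had an unadjusted p under 0.05. All 80 log2 fold changes were below 0 in both replicates, with a median of -0.42 (0.02 over all genes) and a range from -1.04 to -0.03. With the replicate block 69 members were lower (24.5% of all genes), and they held all 37. The large subunit gave 19 calls of 48 and the small 18 of 32.

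Against RGC-like cells, PN-like cells had 41 members lower and 0 higher (30.3% and 35% of all genes called lower and higher), 62 lower with the replicate block (32.9% of all genes). The median was -0.40 (0.06 over all genes), and at library sizes alone, with no TMM, -0.61 beside -0.14 over all genes. This comparison shares its PN-like cells with the previous one and its RGC-like cells with the first. Among the called members, the largest falls after Rps27l and Rpl22l1 were in Rpl14 (-0.92 ± 0.12, SE), Rpl12 (-0.90 ± 0.16), Rpsa (-0.90 ± 0.16), Rplp1 (-0.86 ± 0.14), Rps12 (-0.73 ± 0.12) and Rplp0 (-0.72 ± 0.17), with edgeR adjusted p-values up to 0.0048. Rps2, a small subunit protein at the mRNA entry channel, had a log2 fold change of -0.94 ± 0.44 that was not called without the block.

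Rpsa, the laminin receptor protein of the small subunit, measured 2875 and 3655 CPM in RGC-like, 2453 and 2657 in IPC-like, 1379 and 1649 in PN-like and 802 and 881 in MGE interneuron-like cells. Of the P-stalk, Rplp0 went from 2539 and 3267 CPM in RGC-like to 1380 and 1671 in PN-like cells and Rplp1 from 2599 and 2408 to 1276 and 1113. Rplp2 went from 1466 and 1190 to 887 and 704, which was not called (-0.53 ± 0.21, SE) but was with the replicate block (-0.53 ± 0.08, edgeR adjusted p = 4.2e-04) and by DESeq2. In all 4 genes no PN-like value reached the RGC-like ones. The share of all genes separated in this way was not counted, and 30.3% of all genes were called lower in this comparison.

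At the other end, Rps7, Rpl27, Rpl38 and Rpl10 had log2 fold changes of 0.08 ± 0.16, 0.01 ± 0.15, 0.01 ± 0.29 and -0.00 ± 0.18 (SE) between PN-like and RGC-like cells, but their signs depended on the scaling: all 80 members, these 4 included, were below 0 under library sizes alone, where the highest was -0.13, and by DESeq2, where the highest was -0.03. As CPM, Rps7 measured 1987 and 2503 in RGC-like and 1886 and 2222 in PN-like cells.

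Relative to the module total, Rps27l (-0.82 ± 0.18, SE), Rpl22l1 (-0.76 ± 0.16), Rpl14 (-0.51 ± 0.13), Rpl12 (-0.49 ± 0.16), Rpsa (-0.49 ± 0.17), Rplp1 (-0.46 ± 0.15) and Rps12 (-0.33 ± 0.13) lost part of the module from RGC-like to PN-like cells, and Rps7 (0.49 ± 0.17) and Rpl27 (0.42 ± 0.14) gained. These 9 of 80 compare with 71.1% of all genes called in either direction on that scale, on which most genes are higher because the module fell. With the replicate block 26 members were called (75% of all genes). From RGC-like to IPC-like cells Rpl22l1 and Rpl7l1 were called (39.1% of all genes), and 9 members with the block (43.3%). From IPC-like to PN-like cells Rps27l was lower (-0.62 ± 0.18) and Rpl7l1 higher (0.39 ± 0.14), with 56.8% of all genes called, and 8 members were called with the block (61.7%).

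Between MGE interneuron-like and PN-like cells nearly the whole module was lower. Of 80 members 79 were called lower and 0 higher (21.9% and 14.4% of all genes called lower and higher), all but Rps2, and with the block all 80 (23.3%). The log2 fold changes ran from -1.55 (Rpl27) to -0.97 (Rps13), with a median of -1.24 (-0.09 over all genes). Scaled on genes spanning under 20 kb the median was -0.92 (0.23 over all genes). Among cells of 3000 to 6000 UMIs only 9 members were called lower, with all 80 below 0 in both replicates and a median of -0.73; 71 had an unadjusted p under 0.05, and this fit had fewer cells and 8828 genes. The cause of the lower count was not tested. Relative to the module total 0 members were called, at an unadjusted p under 0.05 also 0, against 67.6% of all genes, and 8 with the block (68.9%).

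**Figure D4:**
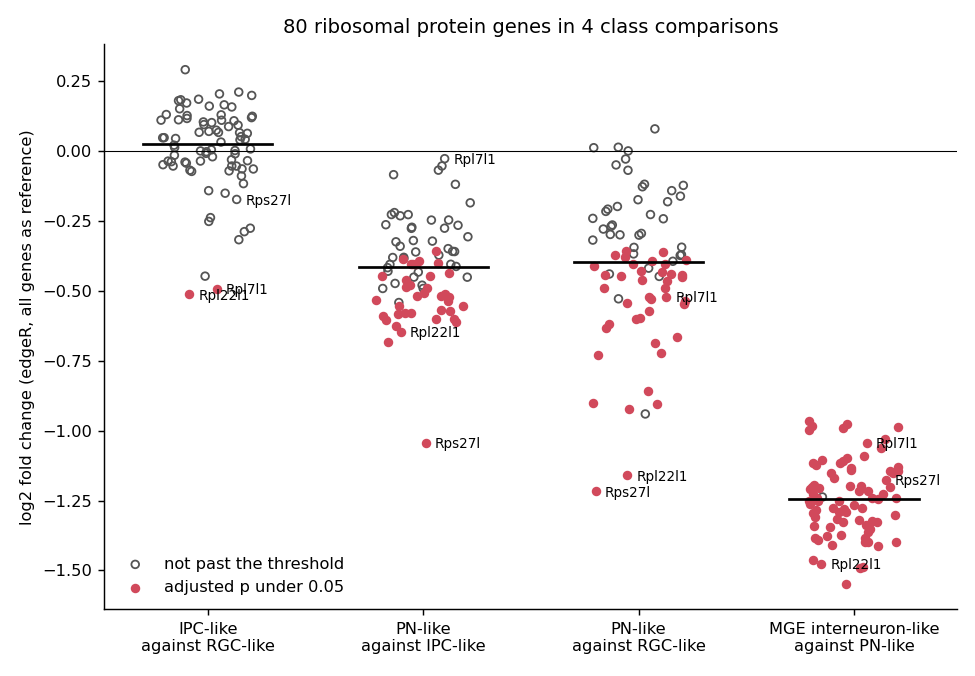
Log2 fold changes (y axis, edgeR with all genes as reference) of 80 ribosomal protein genes in 4 class comparisons (x axis). Each point is a gene, filled where the adjusted p is under 0.05, and bars mark medians, which are 0.03, -0.42, -0.40 and -1.24.

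Other genes of the ribosome and of translation were counted in the same fit. Of 5 ribosomal protein genes outside the naming rule, Rack1 (-0.36 ± 0.15, log2, SE) and Fau (-0.32 ± 0.13) were not called in PN-like against IPC-like cells by edgeR, nor were the other 3. In MGE interneuron-like against PN-like cells, Rack1 (-1.28 ± 0.16, SE), Fau (-1.05 ± 0.13) and Rpl36al (-1.16 ± 0.12) were among the 4 of 5 tested that were lower, while in PN-like against RGC-like cells Rpl36al alone of the 5 was called (-0.38 ± 0.11). Of 39 translation factors, 34 were lower and 0 higher between MGE interneuron-like and PN-like cells, and 16 were lower and 4 higher between PN-like and RGC-like cells. Of all genes, 21.9% were called lower in the first of these comparisons and 30.3% in the second. Eef1a2, the elongation factor of neurons and muscle, rose by 4.50 ± 0.21 (log2, SE) and Eif4a2, a helicase of initiation, by 1.36 ± 0.09, while Eef1d, an exchange factor of elongation, fell by 2.22 ± 0.15. Their adjusted p-values (edgeR) were at most 2.7e-06.

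Of 47 ribosome biogenesis genes, 26 were lower and 1 higher in IPC-like against RGC-like cells (20.9% of all genes were lower), with a median of -0.44, and 33 lower and 3 higher in PN-like against RGC-like cells (30.3% of all genes lower), with a median of -0.57. Dkc1, the pseudouridine synthase of ribosomal RNA, fell by 1.26 ± 0.13 (log2, SE) from RGC-like to IPC-like cells and by 0.65 ± 0.14 from there to PN-like cells. Ltv1, a factor of small subunit assembly, fell by 1.15 ± 0.15 and by 0.43 ± 0.15, and Utp20, of the small subunit processome, by 1.01 ± 0.14 in the first of these comparisons. In MGE interneuron-like against PN-like cells 26 of the 47 were lower and 1 higher, against 21.9% and 14.4% of all genes. Bysl stood at -1.79 ± 0.24 and Polr1d at -1.56 ± 0.16. Whether these genes and the members differed from each other was not tested.

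Of 14 chaperones and import factors of ribosomal proteins 6 were lower and 2 higher in IPC-like against RGC-like cells, with Ipo5 at -1.22 ± 0.20 and Kpnb1 at -0.96 ± 0.11 (log2, SE). Of 78 mitochondrial ribosomal protein genes, which code for another ribosome, 8 were lower and 2 higher in that comparison, 28 lower and 1 higher in PN-like against RGC-like cells and 64 lower and 0 higher in MGE interneuron-like against PN-like cells. The shares of all genes called lower in these 3 comparisons were 20.9%, 30.3% and 21.9%, so the first mitochondrial count lay below the share of all genes and the second near it. Of 19 growth regulators 4 were higher and 2 lower in IPC-like against RGC-like cells (20.4% and 20.9% of all genes). There Eif4ebp1, an inhibitor of cap-dependent initiation, fell by 3.39 ± 0.41. Ddit4, an inhibitor of mTOR signalling, rose by 1.57 ± 0.14 and Mxd1 by 1.23 ± 0.15. In PN-like against RGC-like cells 7 of the 19 were higher and 3 lower (35% and 30.3% of all genes). Myc, a driver of ribosome synthesis, was higher there by 1.67 ± 0.22 and Mxi1 by 0.92 ± 0.11.

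The 2 libraries themselves differed in which members they counted. As part of the module's UMIs, 68 of the 83 members differed between replicates in the same direction in all 4 classes, and 27 of the 80 tested by more than 0.2 (log2) in each class, 15 of them higher in replicate 1 and 12 in replicate 3. The share of all genes that differed in these ways was not counted, so the counts may not be particular to the module. Rps2 lay furthest, higher in replicate 3 by a log2 ratio of 0.83 to 1.07 in the 4 classes, and Rpl37, Rps27, Rps28 and Rpl38 were the largest in the other direction, with means of -0.61, -0.60, -0.55 and -0.55. The 15 members higher in replicate 1 had coding lengths of 138 to 426 bases and the 12 higher in replicate 3 of 576 to 1209 bases, with no overlap. Across the 80 members the mean log2 ratio of replicate 3 over 1 went with the log2 of the coding length, at Pearson's r = 0.81 and Spearman's rho = 0.86 (n = 80 genes of the same 2 libraries, which are not independent replicates). Without Rps2 r was 0.82. Over 2202 other genes of at least 1000 UMIs and no longer than the longest member, in RGC-like cells, r was -0.00 and rho -0.09, and over all 4925 other genes of that many UMIs r was -0.22 and rho -0.34. The change between classes did not go with coding length in this way, with r from -0.13 to 0.01 for the members' relative fold changes in the 4 comparisons.

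**Figure D5:**
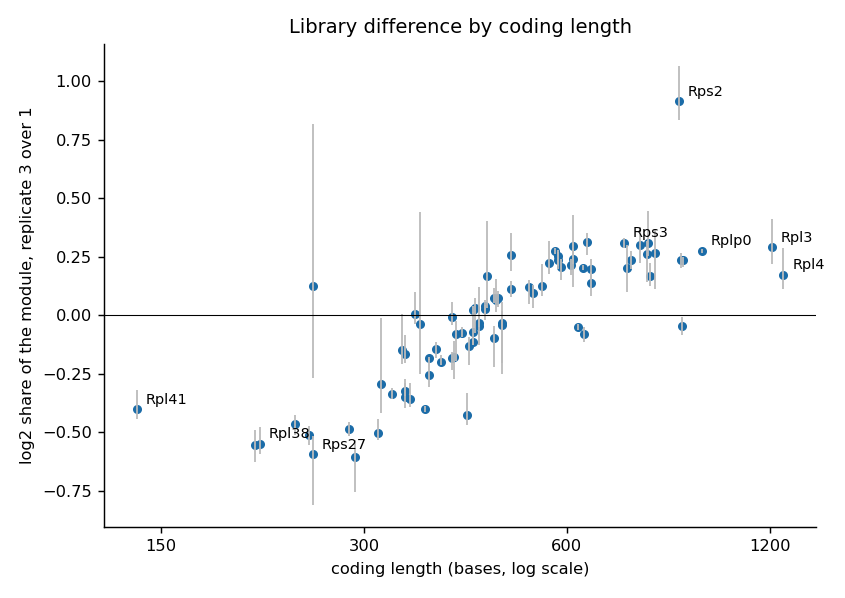
Log2 ratio of a member's share of the module in replicate 3 over replicate 1 (y axis) by coding length in bases (x axis, log scale) for 80 ribosomal protein genes; points are means over 4 classes and bars run from the lowest to the highest class. Most of the shorter members lie below 0 and most of the longer above it, and Rps2 stands apart at 0.92.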

How the data were processed

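UMI counts per gene and cell barcode were deposited by the authors as raw counts, made per the labels with Cell Ranger 7.0.0 on mm10; the intron setting and cell calling are not given in the sources used here. Members and lists were chosen with earlier results of these data known. Cells had to hold between 1500 and 60000 UMIs with less than 10% of them mitochondrial, which removed 710 and 1387 barcodes, and 304 and 629 more as predicted doublets (doublet simulation, highest scores, 0.8% per 1000 barcodes). Doublet scoring, variable genes (2000), 30 components and Leiden clusters (resolution 1.0) left the members out. A cluster took the class with the largest share of its markers on (at least 3), and stayed unnamed where markers of another class outnumbered that class's own among its leading genes. The MGE and CGE/LGE classes were counted without Gad1, Gad2, Dlx1, Dlx2 and Dlx5. Either was possible only with at least 3 of these genes on, and was then preferred to any other class.

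Each class gave 1 summed count per gene from each library, fitted with edgeR 4.0.16 (R 4.3.3), TMM and Benjamini-Hochberg adjustment over 14729 genes; DESeq2 1.42.0 was an alternative. The rule for named members took the 8 largest called changes each way per comparison (5 for the relative fit), paralogs ending in l with their partners, the P-stalk, Rpsa and the 5 most abundant, and the 3 largest called of each other list. Some genes that the rule names are not reported here. Single members were also chosen after their values were seen (Rps2, Rpl38, Rpl10, Rps13, those higher in one library and the clusters by leading genes). The main fit has no replicate term. Sums with the same number come from the same library, so the numbers pair them. Over all 14729 genes their deviations from class means correlated at 0.23 to 0.25 among RGC-like, IPC-like and PN-like sums. With the MGE interneuron-like sums they correlated at 0.02 to 0.10. This correlation was not computed for the members alone, of which 68 differed between replicates in the same direction in all 4 classes. The main fit counts such a shared difference as spread. The blocked fit is given where it changes a call. On simulated counts for IPC-like against RGC-like cells (14235 genes), the fit recovered 12.1%, 55.7% and 79.7% of changes of 0.5, 1 and 2 (log2), with 8 false among 101 calls. The changed genes, 66, 61 and 64 at these sizes, were drawn at any level. In the data 2998 genes were called higher and 3079 lower, and the simulation held no difference shared within a library. The rates therefore do not carry over to the members. RefSeq positions are GRCm38.p6; coding lengths are from GENCODE vM39. Depth was 64182006 and 93295807 UMIs. Alternatives added after seeing the data were depth-matched cells, scaling on genes under 20 kb, and the 2 changes of class membership.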

Additional observations from a re-analysis of the deposited data

How the results depend on the processing

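Alternatives changed 1 step at a time, and the stricter cell filter moved both UMI limits and the mitochondrial limit together. The alternatives for single named genes did not include the cells of 3000 to 6000 UMIs. Of the values of these genes, 1163 were unchanged, 44 changed sign, 32 gained a call, 7 lost one and 2 moved by more than the replicate spread. Unchanged meant the same direction and side of the threshold. With 1 replicate left out, it meant a value within the replicate spread of the main one. There a change of sign was counted only for genes called in the main fit. Among cells of 3000 to 6000 UMIs the count of lower members fell from 79 to 9 between MGE interneuron-like and PN-like cells. The cause of the shifts was not tested. Values with 1 replicate left out have no test, since 1 sum a class remains. The replicate block added calls in every comparison. The lists that follow leave out alternatives with smaller changes in a count, and medians or shares within the replicate spread. The median of members in IPC-like against RGC-like cells turned below 0 with DESeq2 (-0.030), library sizes alone (-0.040), no low-count filter (-0.0063), thinned cells (-0.0089) and mitochondrial and nuclear RNA left out (-0.049), and rose to 0.12 with Leiden resolution 2.0 and with the Neurog2 cluster as IPC-like.

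The members called higher, IPC-like against RGC-like, 0, became 1 with the replicate block. The members called lower, IPC-like against RGC-like, 2, became 8 with the replicate block, 1 with the stricter cell filter, 1 with the Neurog2 cluster as IPC-like and 0 with cells of 3000 to 6000 UMIs. The median log2 fold change of members, IPC-like against RGC-like, 0.025, ranged from -0.054 to 0.11 with 1 replicate left out. The members called relative to the module total, IPC-like against RGC-like, 2, became 9 with the replicate block. The members called lower, PN-like against IPC-like, 37, became 57 with DESeq2, 60 with library sizes alone, 69 with the replicate block, 60 with doublets kept and 66 with cells of 3000 to 6000 UMIs. They became 55 with Leiden resolution 0.5, 55 with Leiden resolution 2.0, 52 with cells thinned to 3000 UMIs and 54 with the Neurog2 cluster as IPC-like. The median log2 fold change of members, PN-like against IPC-like, -0.42, became -0.47 with DESeq2, -0.56 with library sizes alone, -0.36 with no low-count filter, -0.38 with scaling on genes under 20 kb, -0.50 with doublets kept, -0.49 with Leiden resolution 0.5, -0.49 with Leiden resolution 2.0, -0.50 with cells thinned to 3000 UMIs, -0.49 with the Neurog2 cluster as IPC-like and -1.05 with cells of 3000 to 6000 UMIs and ranged from -0.44 to -0.40 with 1 replicate left out. The members called relative to the module total, PN-like against IPC-like, 2, became 8 with the replicate block. The members called lower, PN-like against RGC-like, 41, became 63 with library sizes alone, 62 with the replicate block, 26 with the stricter cell filter and 62 with cells of 3000 to 6000 UMIs. They became 61 with DESeq2, 58 with cells thinned to 3000 UMIs and 52 with mitochondrial and nuclear RNA left out. The median log2 fold change of members, PN-like against RGC-like, -0.40, became -0.50 with DESeq2, -0.61 with library sizes alone, -0.31 with the stricter cell filter, -0.52 with cells thinned to 3000 UMIs, -0.49 with mitochondrial and nuclear RNA left out and -0.93 with cells of 3000 to 6000 UMIs and ranged from -0.45 to -0.35 with 1 replicate left out. The members called relative to the module total, PN-like against RGC-like, 9, became 26 with the replicate block. The members called lower, MGE interneuron-like against PN-like, 79, became 9 with cells of 3000 to 6000 UMIs. The median log2 fold change of members, MGE interneuron-like against PN-like, -1.24, became -1.16 with DESeq2, -1.11 with library sizes alone, -1.39 with no low-count filter, -0.92 with scaling on genes under 20 kb, -0.86 with doublets kept, -1.002 with the stricter cell filter and -0.73 with cells of 3000 to 6000 UMIs and ranged from -1.28 to -1.20 with 1 replicate left out. The members called relative to the module total, MGE interneuron-like against PN-like, 0, became 8 with the replicate block. The ribosomal protein share of UMIs per class, RGC-like, 13.9%, became 13.3 with doublets kept, 10.8 with cells of 3000 to 6000 UMIs and 30.1 with genes under 20 kb and ranged from 13.5 to 14.3 with 1 replicate left out. The ribosomal protein share of UMIs per class, IPC-like, 13.4%, became 14.4 with the stricter cell filter, 14.2 with Leiden resolution 0.5, 14.2 with Leiden resolution 2.0, 14.4 with the Neurog2 cluster as IPC-like, 11.8 with cells of 3000 to 6000 UMIs and 29.5 with genes under 20 kb and ranged from 13.04 to 13.8 with 1 replicate left out. The ribosomal protein share of UMIs per class, PN-like, 9.10%, became 9.03 with doublets kept, 9.59 with the stricter cell filter, 8.61 with the mean over cells, 8.78 with cells thinned to 3000 UMIs, 9.58 with mitochondrial and nuclear RNA left out, 9.17 with the shallowest PN-like cluster left out, 4.90 with cells of 3000 to 6000 UMIs and 23.1 with genes under 20 kb and ranged from 9.08 to 9.12 with 1 replicate left out. The ribosomal protein share of UMIs per class, MGE interneuron-like, 4.24%, became 5.34 with doublets kept, 5.48 with the stricter cell filter, 3.57 with the mean over cells, 3.70 with cells thinned to 3000 UMIs, 4.57 with mitochondrial and nuclear RNA left out, 2.75 with cells of 3000 to 6000 UMIs and 16.3 with genes under 20 kb and ranged from 4.11 to 4.38 with 1 replicate left out. The ribosomal protein share along the differentiation score, last against first bin, -0.51, became -0.37 with genes under 20 kb and ranged from -0.59 to -0.44 with 1 replicate left out. Rpl10 crossed 0 (log2 fold change of Rpl10, IPC-like against RGC-like) at -0.0055 with mitochondrial and nuclear RNA left out. Rpl13 crossed 0 (log2 fold change of Rpl13, IPC-like against RGC-like) at 0.0057 with doublets kept, 0.031 with the stricter cell filter, 0.016 with Leiden resolution 0.5, 0.039 with Leiden resolution 2.0 and 0.060 with the Neurog2 cluster as IPC-like. Rpl22 crossed 0 (log2 fold change of Rpl22, IPC-like against RGC-like) at 0.10 with doublets kept, 0.12 with the stricter cell filter, 0.092 with Leiden resolution 0.5, 0.12 with Leiden resolution 2.0 and 0.13 with the Neurog2 cluster as IPC-like. Rpl3 crossed 0 (log2 fold change of Rpl3, IPC-like against RGC-like) at 0.030 with doublets kept, 0.057 with the stricter cell filter, 0.030 with Leiden resolution 0.5, 0.039 with Leiden resolution 2.0 and 0.082 with the Neurog2 cluster as IPC-like. Rpl39 crossed 0 (log2 fold change of Rpl39, IPC-like against RGC-like) at -0.0022 with library sizes alone and -0.012 with mitochondrial and nuclear RNA left out. Rplp2 crossed 0 (log2 fold change of Rplp2, IPC-like against RGC-like) at 0.024 with doublets kept, 0.019 with the stricter cell filter, 0.023 with Leiden resolution 0.5, 0.028 with Leiden resolution 2.0 and 0.034 with the Neurog2 cluster as IPC-like. Rps27a crossed 0 (log2 fold change of Rps27a, IPC-like against RGC-like) at -0.024 with DESeq2, -0.034 with library sizes alone and -0.043 with mitochondrial and nuclear RNA left out. Rpl7l1 crossed 0 (log2 fold change of Rpl7l1, PN-like against IPC-like) at 0.028 with no low-count filter and 0.0091 with scaling on genes under 20 kb. Rpl10 crossed 0 (log2 fold change of Rpl10, PN-like against RGC-like) at 0.032 with no low-count filter, 0.0024 with the replicate block, 0.030 with scaling on genes under 20 kb, 0.092 with the stricter cell filter, 0.0097 with Leiden resolution 2.0, 0.010 with the Neurog2 cluster as IPC-like and 0.015 with the shallowest PN-like cluster left out. Rpl27 crossed 0 (log2 fold change of Rpl27, PN-like against RGC-like) at -0.092 with DESeq2, -0.20 with library sizes alone, -0.039 with doublets kept, -0.047 with cells thinned to 3000 UMIs and -0.080 with mitochondrial and nuclear RNA left out. Rps7 crossed 0 (log2 fold change of Rps7, PN-like against RGC-like) at -0.026 with DESeq2, -0.13 with library sizes alone, -0.062 with cells thinned to 3000 UMIs and -0.015 with mitochondrial and nuclear RNA left out.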

Other observations

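Paralogs also differed in the classes outside the 4 compared. Rpl22l1 measured 825 and 691 CPM in meningeal-like and 80.9 and 52.5 in red blood cell-like cells (replicates 1 and 3). Rps27l made up 22.4% and 36.8% of its pair with Rps27 in Cajal-Retzius-like cells and 14.1% and 14.0% in endothelial-like cells. These are values with no test.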
